A study of Drosophila melanogaster with 8 samples.

Results

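Long noncoding RNA (lncRNA) and antisense RNA (asRNA) promoters of Drosophila melanogaster were examined for NELF-E, a subunit of the Negative Elongation Factor. The set comprised every gene of the Ensembl BDGP6 annotation whose symbol begins with lncRNA: or asRNA: and whose 5′ end has no protein-coding transcript start within 1000 bp. These criteria gave 1726 genes, 1517 lncRNAs and 209 asRNAs, of 2450 such genes and of 18358 gene starts in all. The remaining 724 lncRNA and asRNA genes start within 1000 bp of a coding start. Each promoter was read as a window of 500 bp on either side of the annotated 5′ end, and the 1726 genes have 1724 distinct starts.

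The binding data were ChIP-seq peaks (DNA crosslinked to the factor, immunoprecipitated and sequenced) from Kc167, a female Drosophila cell line of embryonic origin. Mock cells were nucleofected with neither dsRNA nor siRNA, and siAGO2 cells received an siRNA against AGO2, an Argonaute protein of the siRNA pathway, whose own level these lists do not measure. Cells were harvested 3 days after transfection, and each treatment had 2 NELF-E libraries, called here mock 1, mock 2, siAGO2 1 and siAGO2 2. The matching input samples were not analysed here. All 4 libraries came from 1 cell line, and nothing in the labels says that replicates came from separate cultures, so p-values measure only the spread between these libraries, which may be technical. In a bulk ChIP, occupancy in fewer cells and weaker occupancy in each cell cannot be told apart.

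NELF holds RNA polymerase II shortly after it has begun transcription, together with the factor DSIF, and the kinase P-TEFb releases it. In flies such pausing is known mostly from protein-coding genes, where promoters often carry GAGA elements or well-placed core promoter motifs. lncRNA genes are also transcribed by RNA polymerase II. Some of them are the primary transcripts from which microRNAs are cut, and those belong to the Microprocessor and AGO1 pathway. AGO2 mainly carries siRNAs. A NELF-E peak says that the factor was crosslinked at a place and does not by itself measure transcription.

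The promoters that the results turn on are printed from 250 bp before to 50 bp after the annotated start, 5′ to 3′ on the strand of the gene, from the RefSeq copy of the release 6 genome (BDGP6, dm6). Capitals mark GAGAG or its reverse complement CTCTC, the core of a GAGA element. The first 4 sequences are microRNA hosts with strong NELF-E peaks in every library. lncRNA:CR43334 hosts bantam (chr3L:628185-628484, plus strand) and lncRNA:CR43857 hosts mir-275 (chr2L:7423570-7423869, plus strand). lncRNA:CR31044 hosts mir-279 and mir-996 (chr3R:29214312-29214611, plus strand), and lncRNA:CR43459 hosts mir-277 and mir-34 (chr3R:10093511-10093810, plus strand). lncRNA:marge is the strongest bound gene with no microRNA whose summits lay at its own start (chr3L:14977582-14977881, minus strand). lncRNA:Hsromega, the heat shock lncRNA, is shown at its second annotated start (chr3R:21296371-21296670, plus strand), where its summits lay. lncRNA:let7C, host of let-7, mir-100 and mir-125, is shown as a microRNA host with no peak (chr2L:18455467-18455766, plus strand).
lncRNA:CR43334: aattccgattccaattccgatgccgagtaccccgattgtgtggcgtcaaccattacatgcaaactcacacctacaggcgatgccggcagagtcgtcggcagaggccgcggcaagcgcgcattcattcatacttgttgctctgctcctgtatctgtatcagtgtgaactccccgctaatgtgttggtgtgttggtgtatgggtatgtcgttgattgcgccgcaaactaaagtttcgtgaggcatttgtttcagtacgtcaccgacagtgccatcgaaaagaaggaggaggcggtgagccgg
lncRNA:CR43857: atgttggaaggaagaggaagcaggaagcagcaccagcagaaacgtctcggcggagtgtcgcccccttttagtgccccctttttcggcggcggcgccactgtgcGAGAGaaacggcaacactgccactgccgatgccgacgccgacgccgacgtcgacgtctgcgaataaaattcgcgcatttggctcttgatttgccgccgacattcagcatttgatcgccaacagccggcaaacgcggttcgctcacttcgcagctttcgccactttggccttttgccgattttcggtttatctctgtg
lncRNA:CR31044: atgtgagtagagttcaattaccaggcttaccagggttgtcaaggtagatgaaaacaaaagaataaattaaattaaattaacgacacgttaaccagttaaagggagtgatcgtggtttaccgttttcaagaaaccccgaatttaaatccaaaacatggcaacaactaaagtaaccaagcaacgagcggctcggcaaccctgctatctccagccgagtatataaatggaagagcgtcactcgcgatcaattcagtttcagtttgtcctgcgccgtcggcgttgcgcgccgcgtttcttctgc
lncRNA:CR43459: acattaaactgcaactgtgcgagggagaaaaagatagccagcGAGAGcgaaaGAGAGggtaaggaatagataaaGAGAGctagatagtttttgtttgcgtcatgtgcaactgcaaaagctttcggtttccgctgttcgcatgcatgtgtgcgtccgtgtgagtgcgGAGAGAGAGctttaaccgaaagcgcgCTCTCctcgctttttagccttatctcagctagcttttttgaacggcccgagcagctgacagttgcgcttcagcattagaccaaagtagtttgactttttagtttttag
lncRNA:marge: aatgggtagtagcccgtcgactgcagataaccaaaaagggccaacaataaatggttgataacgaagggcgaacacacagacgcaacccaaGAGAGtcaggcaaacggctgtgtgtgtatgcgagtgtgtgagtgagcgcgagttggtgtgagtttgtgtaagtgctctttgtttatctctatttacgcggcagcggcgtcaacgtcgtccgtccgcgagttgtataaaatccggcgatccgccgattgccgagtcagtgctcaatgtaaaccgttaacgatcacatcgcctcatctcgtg
lncRNA:Hsromega: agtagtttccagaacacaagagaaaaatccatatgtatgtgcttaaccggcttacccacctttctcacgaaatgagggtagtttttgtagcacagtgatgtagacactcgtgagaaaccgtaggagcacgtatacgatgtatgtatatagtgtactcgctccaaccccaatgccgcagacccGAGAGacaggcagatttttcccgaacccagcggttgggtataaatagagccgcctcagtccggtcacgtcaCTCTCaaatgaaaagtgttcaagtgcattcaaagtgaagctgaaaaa
lncRNA:let7C: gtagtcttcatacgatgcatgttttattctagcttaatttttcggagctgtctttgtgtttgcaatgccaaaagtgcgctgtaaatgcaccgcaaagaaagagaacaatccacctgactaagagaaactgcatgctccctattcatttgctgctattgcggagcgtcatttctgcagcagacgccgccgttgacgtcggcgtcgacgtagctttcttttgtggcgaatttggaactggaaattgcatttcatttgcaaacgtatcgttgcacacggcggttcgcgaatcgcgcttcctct

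These promoters did not share one motif. CR43459 held 5 separate GAGA runs, the longest of 9 bases, whereas the bantam and mir-279 promoters held none. With the annotated start counted as base 0, TATAAA began at -33 in CR31044, at -28 in marge and at -30 at the second start of Hsromega. The initiator core TCAGT began at -2 in both CR43334 and CR31044, so that its A is the annotated first base. The unbound let7C promoter held none of these motifs. Of the 20 microRNA hosts with no peak, 10 held GAGAG, 2 held TATAAA and 9 held TCAGT, each on either strand.

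The deposited lists held 7944 and 6933 peaks in mock 1 and mock 2, and 5904 and 6206 peaks in siAGO2 1 and siAGO2 2. The number of fragments that MACS2, the peak caller, took as background served as a measure of depth. This background stood at 4.46 (mock 1), 2.19 (mock 2), 1.18 (siAGO2 1) and 1.48 fragments (siAGO2 2). The siAGO2 libraries were therefore the shallower ones, and mock 1 was 3.78 times as deep as siAGO2 1. The median peak had 69, 41, 26 and 29 fragments at its summit in mock 1, mock 2, siAGO2 1 and siAGO2 2. The highest summit held 294 fragments in each of the 4 lists, with 496 peaks of mock 1 at 250 or more against 29 of siAGO2 1, so fragment numbers of strong peaks are not comparable across these depths. Strength is therefore given mainly as the percentile of a peak's score within its own list. A longer list holds more weak peaks, so the same strong peak ranks higher in it, and percentiles of mock and siAGO2 are to be read with this in mind.

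NELF-E was found at few lncRNA and asRNA promoters that lie away from coding starts. A peak overlapped the window of 120 genes in mock 1 (6.95%, 95% Wilson interval 5.85 to 8.25) and of 100 genes in mock 2 (5.79%, 4.79 to 7.00). It overlapped 80 windows in siAGO2 1 (4.63%, 3.74 to 5.73) and 84 in siAGO2 2 (4.87%, 3.95 to 5.99). The same windows at all gene starts held a peak in 38.7%, 34.5%, 30.8% and 32.3% of cases in mock 1, mock 2, siAGO2 1 and siAGO2 2. These intervals cover counting error only.

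The closest reference is the set of 8089 isolated protein-coding starts, those with no start of another coding gene within 1000 bp. Of these, 30.5%, 27.0%, 23.7% and 24.9% held a peak in mock 1, mock 2, siAGO2 1 and siAGO2 2. Averaged over the 4 libraries, 5.56% ± 1.05 (SD, n = 4) of the lncRNA and asRNA starts and 26.5% ± 2.97 (SD, n = 4) of the isolated coding starts were occupied. The difference of -20.9 percentage points had an SD of 1.92 between libraries. When peaks that overlap a coding start were left out, which by construction removes most peaks of the coding set, the difference became 0.590. The 724 lncRNA and asRNA starts near a coding start held peaks in 35.4%, 30.7%, 28.5% and 28.3% of cases, a share nearer to that of coding starts.

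**Figure D1:**
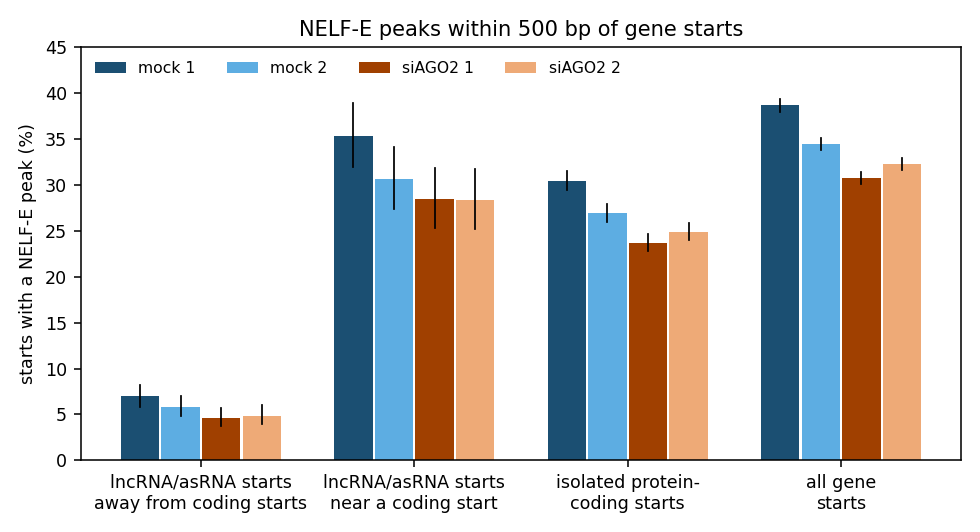
Percentage of starts with a NELF-E peak within 500 bp in each library (bars, y axis in percent) with 95% Wilson intervals (lines), for the 1726 lncRNA and asRNA starts away from coding starts, the 724 near one, the 8089 isolated coding starts and all 18358 gene starts. The first set lies between 4.63% and 6.95% in every library, and the isolated coding starts lie between 23.7% and 30.5%.

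Over the 4 libraries, 124 genes (7.18%) had a peak in at least 1 library and 1602 (92.8%) had none, against 39.4% and 60.6% of all gene starts. Peaks recurred at 66 genes in all 4 libraries (3.82%), where the share over all gene starts was 28.8%. Another 20 genes had a peak in 3 libraries, 22 in 2 and 16 in 1, against 3.55%, 3.4% and 3.64% of all gene starts. Of the 16 single-library genes, 14 were held by mock 1, the deepest library. The others were lncRNA:CR15061 and lncRNA:CR45280, held by siAGO2 2 with 11 and 14 fragments. Genes just inside the 1000 bp limit, at 1002 or 1003 bp from a coding start (asRNA:CR44818, asRNA:CR46140 and lncRNA:CR34044), and genes just outside it, at 988 or 996 bp (asRNA:CR44062, asRNA:CR45822 and lncRNA:CR44440), had no peak in any library.

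Many of the strongest peaks were at microRNA hosts, genes with a microRNA precursor inside them on the same strand. Of 33 such hosts, 9 (27.3%) were occupied in all 4 libraries, whereas 57 of the other 1693 genes (3.37%) were. The same shares were 28.8% over all gene starts and 22.2% over isolated coding starts. Hosts were thus occupied about as often as gene starts in general, and the other genes less often. Among the 15 genes with the highest mean percentile of those held by all 4 libraries, 8 were microRNA hosts. The 9 hosts had a median percentile of 92.2, 92.2, 90.3 and 88.7 in mock 1, mock 2, siAGO2 1 and siAGO2 2. The other genes held by all 4 libraries had medians of 52.6, 52.5, 37.9 and 43.6. Peaks at the hosts were also wider, with medians of 1542, 1132, 981 and 981 bp against 526, 463, 324 and 437 bp. No test was run on this difference, which is given as a description.

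The bantam host lncRNA:CR43334 (chr3L:628435-643900) gives rise to a microRNA that promotes growth and blocks cell death. Its peak held 277 and 225 fragments at the summit in mock 1 and mock 2 and 179 and 164 in siAGO2 1 and siAGO2 2. Its percentiles were 97.5 and 96.8 in the mock libraries and 94.7 and 94.5 in the siAGO2 libraries. Both siAGO2 percentiles were below both mock percentiles, and all 4 were in the top of their lists. The summits lay 18 to 25 bp downstream of the annotated 5′ end, within 7 bp of each other. This gene has 3 annotated starts, and the summits lay 10 to 17 bp upstream of the nearest of them.

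The mir-275 host lncRNA:CR43857 (chr2L:7423820-7425932) had 281, 233, 173 and 169 fragments in mock 1, mock 2, siAGO2 1 and siAGO2 2. Its percentiles were 95.9 and 93.7 in mock and 96.4 and 96.8 in siAGO2, so both siAGO2 values were above both mock values. Its summit was 18 bp downstream of the start in mock 1 and between 34 and 37 bp upstream in the other libraries.

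The host of mir-279 and mir-996, lncRNA:CR31044 (chr3R:29214562-29219667), carries microRNAs known for their part in neuron specification and border cell migration. Fragments at its summit numbered 254, 187, 149 and 116, and its percentiles were 99.0, 93.5, 96.4 and 87.6. The groups overlapped in percentile. Its summits lay 17 to 27 bp downstream of the start.

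lncRNA:CR43459 (chr3R:10093761-10101356) hosts mir-277 and mir-34, the latter known for its role in ageing of the fly brain. It had 240, 150, 87 and 108 fragments, with percentiles of 86.1 and 85.3 in mock and 87.1 and 88.7 in siAGO2. Both siAGO2 percentiles lay above both mock percentiles, by less than 4 points in any pair. Its summits lay farther into the gene than those above, 69 to 89 bp downstream of the start.

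Of the hosts bound in every library, 4 more lay on chromosome arms 2R and 3L. lncRNA:CR44206, host of mir-184, which acts in the female germline, had percentiles of 93.0, 95.7, 99.4 and 97.7 and summits 36 to 78 bp downstream. lncRNA:CR43651, host of mir-14, a suppressor of cell death, had percentiles of 92.2, 90.3, 90.3 and 93.2 and summits from -33 to 25 bp. lncRNA:CR43650, host of mir-8, a member of the miR-200 family, was the weakest of the 9, with percentiles of 77.7, 64.4, 60.6 and 71.6 and summits 59 to 111 bp upstream. lncRNA:CR43626, host of mir-282, had percentiles of 89.9, 83.5, 77.9 and 75.5. In mock 1 its strongest peak was 2877 bp wide with a summit 1354 bp into the gene, and in the other libraries the summit lay between -59 and 170 bp. This gene has 3 annotated starts. Measured from the nearest of them, the summits lay at 100, -80, 13 and -59 bp in mock 1, mock 2, siAGO2 1 and siAGO2 2.

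lncRNA:Hsromega (chr3R:21296127-21317836), which organises nuclear omega speckles and rises on heat shock, holds the mir-4951 precursor. Its peak had 209, 132, 72 and 94 fragments in mock 1, mock 2, siAGO2 1 and siAGO2 2. Percentiles were 91.7 and 92.2 in mock and 84.0 and 86.7 in siAGO2, so the siAGO2 values were lower. The summits lay 516 to 538 bp from the 5′ end of the gene, just outside the window. The peak covered that 5′ end in both mock libraries and began 119 and 270 bp downstream of it in siAGO2 1 and siAGO2 2. Measured from the second annotated start, 494 bp downstream and used by 6 annotated transcripts against 1 for the first, the summits lay at 22 to 44 bp.

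The other 24 hosts had either no peak or weak ones. No library had a peak at 20 of the 33, among them the hosts of mir-1, mir-124, mir-9a, mir-10 and mir-iab-8, microRNAs known from muscle, neural and Hox programmes. The 2 overlapping asRNA hosts of mir-252, asRNA:CR17025 and asRNA:CR46354, share a start and had a peak in both mock libraries alone, with 43 and 17 fragments. lncRNA:CR46004 (mir-276b) and lncRNA:CR45911 (mir-13a, mir-13b-1 and mir-2c) had peaks in mock 1 and siAGO2 2 with 28 fragments or fewer. Unbound hosts had a median length of 7039 bp, close to the 7596 bp of the hosts held by all 4 libraries.

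Genes with no microRNA made up the rest of the 15 strongest held by all 4 libraries. lncRNA:marge (chr3L:14976626-14977631) had 197, 140, 88 and 96 fragments, and percentiles of 85.5 and 87.4 in mock and 88.1 and 88.6 in siAGO2. Its siAGO2 percentiles were above those of mock, and its summits lay 19 to 38 bp downstream. lncRNA:CR45054 (chr3R:10083381-10090525) had percentiles of 94.0 and 88.7 in mock and 78.2 and 80.8 in siAGO2, with summits 57 to 93 bp upstream. asRNA:bsAS, transcribed from the opposite strand of bs (the gene of Drosophila serum response factor, blistered), was the strongest gene starting inside a coding gene on the other strand among those held by all 4 libraries. Its percentiles were 89.9, 81.0, 74.1 and 80.3, and its summits lay from -14 to 31 bp. Both of these genes had lower percentiles in siAGO2 than in mock.

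lncRNA:CR45637 and lncRNA:CR45638 are 2 short genes that run in opposite directions with overlapping 5′ ends, and they share 1 peak, of percentile 84.0, 80.5, 83.6 and 74.6. Another gene, lncRNA:CR45639, has the same peak at the edge of its window. lncRNA:CR44713, CR44714, CR44715 and CR44717 likewise share a peak, except that in siAGO2 1 the strongest peak at CR44713 was another one. The 66 genes thus rested on 61 distinct peaks in mock 1 and are not independent of each other.

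At 2 of the strongest genes the peak was centred elsewhere. At lncRNA:CR44842, which lies inside Ptp61F (a protein tyrosine phosphatase gene) on the same strand, the summits were 1011 to 1018 bp upstream. At lncRNA:CR45039 they were 1022 to 1089 bp downstream. In both cases every summit was within 250 bp of a coding start, and the peak entered the window only with its edge. The percentiles there, 90.9, 98.3, 98.5 and 99.6 at CR44842 and 93.9, 95.1, 93.1 and 92.5 at CR45039, therefore describe peaks nearer to a coding start than to the lncRNA.

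**Figure D2:**
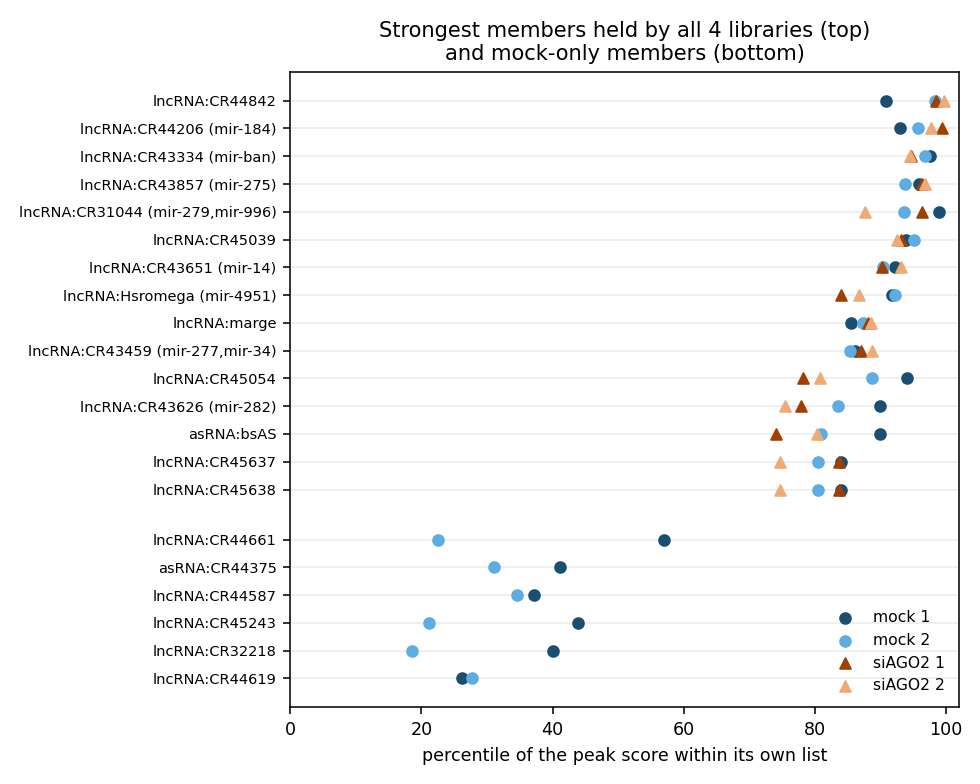
Score percentile within its own list (x axis) of the strongest peak at each named gene (y axis, hosted microRNA in brackets) in mock (circles) and siAGO2 (triangles) libraries. The 15 strongest genes held by all 4 libraries lie above percentile 74, and the 6 strongest mock-only genes lie below 57 and have no siAGO2 points.

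Well-studied lncRNAs of flies were looked up one by one. Of 13 such genes, 12 are annotated under such a symbol and 11 met the criteria, of which 9 had no peak in any library, as did 92.8% of the whole set. bft is annotated here only as the microRNA mir-bft inside lncRNA:CR43314, which had no peak, and lncRNA:sphinx was not included because a coding start lies 867 bp away. lncRNA:roX1 and lncRNA:roX2, the RNAs of the male dosage compensation complex, had none, the nearest peaks being 6082 to 9554 bp and 1713 to 1746 bp from their starts. For roX2 a coding start lies 1707 bp away. lncRNA:let7C had none within the window, and the nearest peaks, 1031 to 1071 bp away, were about as far as the nearest coding start at 1068 bp. lncRNA:bxd and lncRNA:iab8 of the bithorax complex, lncRNA:acal, lncRNA:yar, lncRNA:noe and lncRNA:Vinr were also unbound, with the nearest peak to Vinr at 735 to 836 bp. lncRNA:flam, the piRNA cluster flamenco, had a weak peak in mock 1 alone (20 fragments, percentile 10.6, summit 60 bp downstream). No gene with a Uhg symbol carries the lncRNA: or asRNA: prefix, and the 3 genes that hold a snoRNA on their own strand had no peak.

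Grouped by its surroundings in the annotation, the share of genes held by all 4 libraries spanned a narrower range than between microRNA hosts and the rest. It was 4.06% (47 of 1157) for starts outside coding genes, 3.16% (13 of 411) for those inside a coding gene on the opposite strand and 4.0% (6 of 150) for those on the same strand. The strongest genes of the 3 groups among those held by all 4 libraries were lncRNA:CR44206, asRNA:bsAS and lncRNA:CR44842. By symbol, 61 of 1517 lncRNAs (4.02%) and 5 of 209 asRNAs (2.39%) were held. By distance, 16 of 357 genes 1 to 2 kb from a coding start (4.48%) were held, and so were 26 of 561 at 2 to 5 kb (4.63%). At 5 to 10 kb 11 of 373 (2.95%) were held, and beyond 10 kb 13 of 435 (2.99%). The 17 genes on 2R (6.85% of 248) formed the highest share of the large arms, and the 8 on 2L (of 449) the lowest. These shares were not tested.

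**Figure D3:**
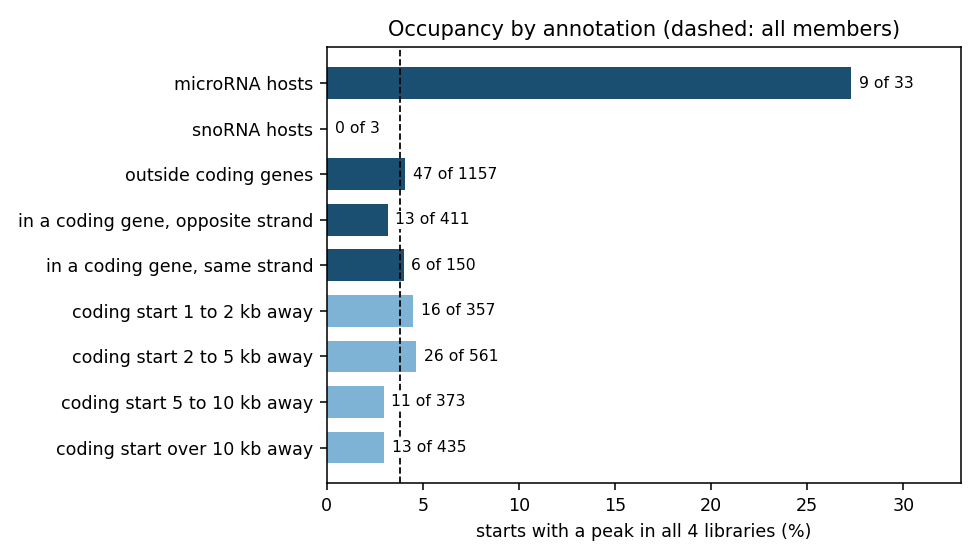
Percentage of lncRNA and asRNA starts with a peak in all 4 libraries (x axis) by annotation (dark bars) and by distance to the nearest coding start (light bars), with counts beside each bar and all 1726 starts as the dashed line at 3.82%. MicroRNA hosts stand at 27.3%, and the other groups lie between 0 and 4.63%. The share over all gene starts, not drawn, is 28.8%.

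Occupied genes were slightly longer than unoccupied ones, with a median of 816 bp for the 66 and 707 bp for the 1602 with no peak. More of them had several annotated transcript starts (12.1% against 4.12%). In the 300 bp promoter, GAGAG on either strand was present in 31 of the 66 (47.0%), in 28 of the 58 genes held by 1 to 3 libraries (48.3%) and in 443 of 1600 without a peak (27.7%). All gene starts had it in 29.5%. Of the microRNA hosts, 7 of the 9 bound in every library and 10 of the 20 unbound held it. Motif 1, the M1BP element, was in none of the 66, in 0.25% of the 1600 without a peak and in 4.76% of all gene starts. The DNA replication-related element (DRE) was in 4.55% (3 of 66), 0.625% (10 of 1600) and 7.48%. TATAAA on either strand was present in 31.8% of the 66, 36.7% of the unbound and 43.9% of all gene starts. The shares for CGGACG, a form of the pause button, were 9.09%, 4.31% and 6.06%, and those for TCAGT were 45.5%, 43.8% and 50.6%. Among microRNA hosts, TATAAA was in 4 of the 9 bound in every library and in 2 of the 20 unbound. CGGACG was in 1 and 4 of these hosts, and TCAGT in 5 and 9. The motifs were searched as exact letters on both strands, and none of them contains another. Median GC content also differed, at 44% in the 66, 39% in the unbound and 38.3% in all gene starts, and its part in the motif shares was not tested.

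Summits at occupied lncRNA and asRNA promoters were spread more widely than at isolated coding promoters. Over all genes with a peak, the median summit was 70, 40.5, 55 and 93 bp downstream of the start in mock 1, mock 2, siAGO2 1 and siAGO2 2. It lay downstream in 65.8%, 63.0%, 67.5% and 71.4% of genes, against 88.3% to 89.4% of occupied isolated coding starts. It lay inside the window in 77.5%, 75%, 82.5% and 78.6%, against 96.5% to 97.2%. It was within 100 bp of the start in 31.7%, 33%, 35% and 36.9%, against 47.7% to 50.8%. In each of the 4 libraries these shares were lower than at isolated coding starts. Over all occupied gene starts, many of which lie near another start, 67.4% to 67.8% of summits were downstream and 29.8% to 32.2% within 100 bp, close to the values here. At the lncRNA and asRNA starts near a coding start the shares were lower, at 51.2% to 54.9% and 14.4% to 16.6%.

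Among the 66 genes held by all 4 libraries, 47 had the summit inside the window in every library, 10 had it outside in every library and 9 varied. The summit was nearer to the gene's own start than to any coding start in every library at 62 of them. For the 47 with summits inside the window the criteria fixed this outcome, because no coding start lies within 1000 bp. The summit was within 100 bp of the start in every library at 22 of the 66, downstream in every library at 41 and upstream in every library at 12. Positions of 1 gene ranged over a median of 58.5 bp between libraries, and over 50 bp or less at 30 genes. The widest range, 1438 bp, was at lncRNA:CR45038. For the 47 genes with summits inside the window, the medians were 55, 46, 55 and 78 bp, and 72.3% to 78.7% were downstream. The summit was thus at the lncRNA or asRNA promoter, as the window defines it, at most but not all of the recurrent genes.

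**Figure D4:**
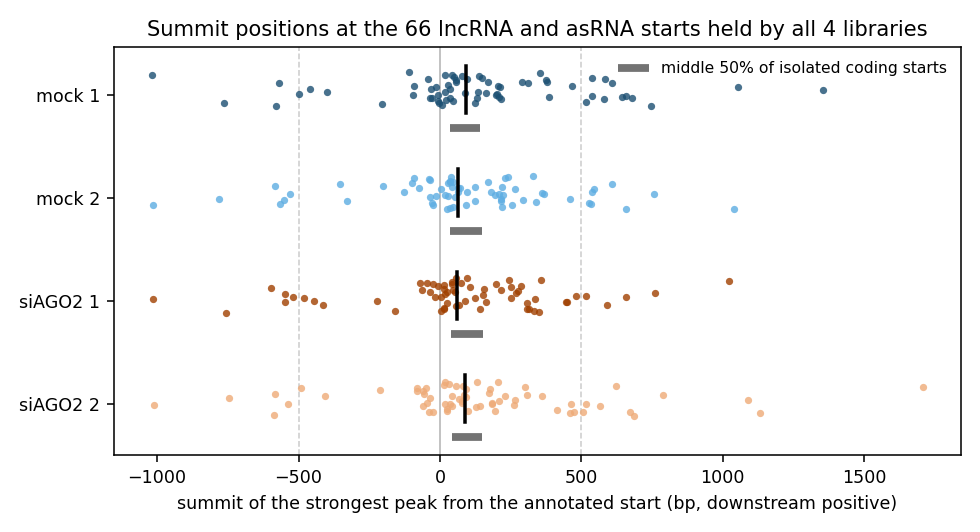
Summit of the strongest peak relative to the annotated start (x axis, bp, downstream positive) at the 66 genes held by all 4 libraries, 1 point per gene and 1 row per library, with the median (black bar), the window (dashed lines at 500 bp on either side) and the middle 50% of isolated coding starts held by all 4 libraries (grey bar). Points gather just downstream of the start but reach beyond the window on both sides, farther than the grey bars.

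To ask whether depletion of AGO2 changed NELF-E at these promoters, the mock and siAGO2 libraries were compared. The number of genes with a peak was 110 ± 14.1 in mock and 82 ± 2.83 in siAGO2 (SD, n = 2 each), a difference of -28. Both siAGO2 libraries were lower than both mock libraries, and the two-sided exact permutation test gave p = 0.333, the smallest it allows with 2 against 2, so it could not call a difference. The ratio of the means was 0.745, against 0.862 over all gene starts and 0.846 over isolated coding starts. The order of the groups is also that of depth, and the 2 cannot be told apart by this comparison. With each list held to its 5904 highest scoring peaks the difference was -10.5, and without mock 1 it was -18.

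The other measures could not be called either. The median summit was 55.3 ± 20.9 bp in mock and 74.0 ± 26.9 bp in siAGO2, a difference of 18.75 bp (exact permutation p = 0.667). Without siAGO2 2 this difference was -0.25 bp, without siAGO2 1 it was 37.75 bp, and without mock 1 and without mock 2 it was 33.5 and 4 bp. The median width was 451, 452.5, 333.5 and 429.5 bp, a difference of -70.25 bp (p = 0.333, exact permutation). It was -22.25 bp without siAGO2 1 and -118.25 bp without siAGO2 2. The median percentile was 41.5, 41.0, 36.4 and 42.2, with overlapping groups and a difference of -1.99 (p = 1, exact permutation). This turned to 0.919 without siAGO2 1 and to 2.1 with lists of equal length, and it was -4.89 without siAGO2 2. At isolated coding starts the median percentile was about 61 in each library. Among the 66 genes held by all 4 libraries the median percentile was 63.7 and 58.5 in mock and 42.9 and 47.0 in siAGO2. The means were 61.1 ± 3.64 and 44.9 ± 2.94, a difference of -16.1 (exact permutation p = 0.333), against -6.46 over all gene starts held by all 4. With lists of equal length, an alternative chosen after seeing the data, 63 genes were held by all 4 and the difference was -7.25, against 0.620 over all gene starts. Over these 5 comparisons no Benjamini-Hochberg adjusted p was under 0.556 (exact permutation).

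Gene by gene, both siAGO2 percentiles lay below both mock percentiles at 33 of the 66 (50%) and above them at 6 (9.09%), where the shares over all gene starts held by all 4 libraries were 43.2% and 6.62%. With lists of equal length the counts were 16 below and 14 above of 63 (25.4% and 22.2%). Over all gene starts the shares were then 18.7% and 23.4%. Lower and higher percentiles in siAGO2 were thus nearly equal in number at the lncRNA and asRNA genes. Their share of lower ones stayed above that of all gene starts, a gap that was not tested. Of the 6 that were higher in siAGO2, 5 were among the strongest genes, namely CR44842, CR44206, CR43857, marge and CR43459. Their mock 1 summits held 292, 293, 281, 197 and 240 fragments, some of them close to the highest value of 294, and the part of this limit was not tested.

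Peaks present in both mock libraries alone were weak ones. A peak in both mock and neither siAGO2 library was found at 15 genes (0.869%), where 2.18% of all gene starts showed this. The reverse was found at 0 genes, where the share over all gene starts was 0.0163%. Of the 98 genes with a peak in both mock libraries, the 15 were 15.3%, against 6.41% of all such gene starts and 7.07% of such isolated coding starts. The 15 rested on 13 distinct peaks, with a median percentile of 34.1 (4.95 to 56.9) in mock 1 and 17.7 (0.858 to 34.6) in mock 2. Their summits held 26 to 65 fragments in mock 1 and 12 to 33 in mock 2. Leaving out mock 2, siAGO2 1 or siAGO2 2 gave 29, 23 and 24 such genes, and lists of equal length gave 10.

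The strongest of the 15 were lncRNA:CR44661, asRNA:CR44375, lncRNA:CR44587, lncRNA:CR45243, lncRNA:CR32218 and lncRNA:CR44619. At CR44661 the mock 1 and mock 2 peaks had percentiles of 56.9 and 22.5 and summits 820 and 586 bp upstream, outside the window. asRNA:CR44375, antisense to the cell cycle kinase gene Cdk4, had percentiles of 41.1 and 31.0, with summits 624 and 612 bp upstream. CR44587 had percentiles of 37.1 and 34.6 and both summits 611 bp upstream. The remaining 3 had summits nearer to the start. They lay 112 and 79 bp downstream at CR45243, 86 bp upstream in both libraries at CR32218, and 78 and 128 bp downstream at CR44619. Thus 3 of these 6 had their summits beyond the window. asRNA:CR31144 shows how an edge can decide such patterns, with peaks of percentile 82.9 and 79.8 in mock 2 and siAGO2 1 alone and summits 1030 and 1059 bp downstream.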

How the data were processed

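The 4 NELF-E peak lists were used, each called by the authors on 1 replicate. Single-end reads of 50 bp were trimmed with cutadapt 1.10, aligned to dm6 with Bowtie2, filtered at a mapping quality of 20, cleared of duplicates with Picard 2.11.0 and called against input with MACS2 2.1.1.20160309. These steps follow the methods of the study and the versions follow the submitters' processing notes, from which the methods differ for cutadapt and Picard. The deposited score is 10 times the −log10 q-value without its decimals. The authors' fold column is a ratio of summit pileup to background, and the authors' lists also give −log10 p and −log10 q values, cut at q = 0.05.

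The lists hold no counts per region, so the study's count model was not run. A gene was occupied if a peak overlapped its window by at least 1 bp, and it took the peak of highest score. Fragments at each summit were solved from fold and p-value, and all 26987 peaks matched within 0.002. In mock 1 this needed a scale of 0.919. Group values were compared by a two-sided exact permutation test. Shares carry 95% Wilson intervals. Python 3.11.15, numpy 2.4.6, pandas 2.3.3, scipy 1.17.1 and matplotlib 3.10.9 were used, and the scripts were tested on simulated data.

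Named genes were the 15 with the highest mean percentile among those held by all 4 libraries, the 6 strongest mock-only genes, 13 well-studied lncRNAs and the strongest gene of each annotation group. Others named in the text were chosen after their values were seen. The genes and lists were chosen with earlier results of these data known. Alternatives changed the window, the start used, the overlap, the peak threshold, the list length, the distance to coding starts and the libraries.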

Additional observations from a re-analysis of the deposited data

How the results depend on the processing

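Of 121 recomputed values, 106 were of the same direction (differences) or near the reported size (counts and shares), 11 moved and 4 reversed. The 106 include the differences averaged over same-numbered pairs (the replicate block), which equal the main ones by construction. The fall in the number of occupied genes and in median width kept its direction in all 15 alternatives run for each. Among these the replicate block could not change it. Left-out libraries gave -18 to -38 genes and -22.25 to -118.25 bp. The median percentile of genes held by all 4 libraries differed by -7.25 with equal list lengths and by -12.9 to -19.0 with 1 library left out, alternatives chosen after seeing the data. The difference in median percentile became 2.1 with equal list lengths and 0.919 without siAGO2 replicate 1 (range over left-out libraries -4.89 to 0.919). The difference in summit position became -0.25 without siAGO2 replicate 2 (range -0.25 to 37.75). The difference from isolated coding starts became 0.590 without peaks over a coding start, which removes those of the coding set by construction, and -23.2 with any transcript start. Genes held by all 4 libraries numbered 100 with a window of 1000 bp. Mock-only genes ranged from 15 to 29 with 1 library left out. Knockdown-only genes ranged from 0 to 3 with 1 library left out, and there was 1 with the window of 1000 bp, with the summit in the window, with a −log10 q of at least 3 and with equal list lengths. The cause of these changes was otherwise not tested. With the replicate block the differences were by construction the same, -28, 18.75, -70.25 and -1.99, with sign-flip p of 0.5, 1, 0.5 and 1 (exact, 2 pairs, smallest possible 0.5). Nothing in the labels says that same-numbered libraries shared more than a number. Their deviations correlated at r = -0.0814 over 5284 gene starts, which cannot show whether they shared a culture or a batch. At the depth of the siAGO2 libraries, a weak peak that is not listed is not shown to be absent.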
